A study of Mus musculus with 11 samples.

Results

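The aryl hydrocarbon receptor axis was followed as 8 genes chosen by symbol: the receptor gene Ahr, the repressor gene Ahrr, the dimer partner gene Arnt, the target genes Cyp1a1, Cyp1b1, Tiparp and Nqo1, and Nfe2l2, which encodes the transcription factor NRF2. All 8 were found among the 55536 genes of the deposited counts, and all 8 passed the low-count filter that left 20307 genes for testing. The choice was made with earlier results of these data known, among them that Ahr was higher in traced than in untraced cells. The wider gene lists used below were also chosen with earlier results known, so their tests are not fully independent of these data. Differences between traced and untraced cells are therefore given for these 8 genes as a description, without p-values, while the Sca-1 comparisons, which the choice did not use, are tested.

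The counts come from 11 bulk RNA libraries of epidermal cells of dorsal skin, taken from male CD4Cre R26-tdT (C57Bl6/N) mice, in which a cell that has expressed Cre from the CD4 promoter, and its progeny, carries the red reporter tdT. All cells were sorted from a CD49f+CD34+ gate, that is, by an integrin of basal keratinocytes and a marker of bulge stem cells of the hair follicle. The groups were 3 libraries of Sca-1+ tdT+ cells, 2 of Sca-1+ tdT- cells, 3 of Sca-1neg tdT+ cells and 3 of Sca-1neg tdT- cells, where Sca-1 marks keratinocytes outside the bulge. Each library pooled 2 mice, aged 29 weeks in replicate 1 of each group and 32 weeks in the others. Whether the groups were sorted from the same mice is not given in the sources used here, so p-values measure the spread between these libraries.

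AHR is a transcription factor of the bHLH-PAS family that waits in the cytoplasm in a chaperone complex. When it binds a ligand, such as a tryptophan photoproduct or a dioxin, it enters the nucleus, pairs with ARNT and binds the xenobiotic response element of its target genes. The cytochrome P450 genes Cyp1a1 and Cyp1b1 are classical targets, and AHRR and TIPARP, themselves induced by the receptor, damp it again. NRF2 drives the antioxidant response, and the quinone reductase gene Nqo1 is a target of both factors. In mouse skin AHR acts in keratinocytes, and the epidermal gamma-delta T cells depend on it.

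Promoters of some of the 8 genes are shown because the receptor's recognition element can be read in them. RefSeq promoter sequences of build GRCm38.p6 were at hand for 7 of the 8 genes, that is, for all but Ahr itself. The 250 bases before the transcription start are printed 5′ to 3′ for the damping genes Ahrr and Tiparp and the cytochrome genes Cyp1a1 and Cyp1b1. Capitals mark the core of the xenobiotic response element, GCGTG, or its reverse complement CACGC.
Ahrr, chr13:74292332-74292581, minus strand: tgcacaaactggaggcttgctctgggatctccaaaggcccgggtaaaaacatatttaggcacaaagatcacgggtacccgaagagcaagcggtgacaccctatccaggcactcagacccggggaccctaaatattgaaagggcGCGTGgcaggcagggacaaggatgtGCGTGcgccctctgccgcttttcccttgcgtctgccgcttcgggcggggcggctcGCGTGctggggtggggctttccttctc
Tiparp, chr3:65528197-65528446, plus strand: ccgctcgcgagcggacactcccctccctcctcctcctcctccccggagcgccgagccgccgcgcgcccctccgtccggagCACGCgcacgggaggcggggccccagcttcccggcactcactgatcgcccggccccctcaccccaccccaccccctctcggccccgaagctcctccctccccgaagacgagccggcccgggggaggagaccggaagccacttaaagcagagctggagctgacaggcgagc
Cyp1a1, chr9:57697363-57697612, plus strand: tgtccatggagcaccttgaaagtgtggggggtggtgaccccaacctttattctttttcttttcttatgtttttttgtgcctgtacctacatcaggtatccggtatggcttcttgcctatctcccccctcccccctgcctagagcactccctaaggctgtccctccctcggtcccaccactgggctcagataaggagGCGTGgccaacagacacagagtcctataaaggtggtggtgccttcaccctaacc
Cyp1b1, chr17:79715062-79715311, minus strand: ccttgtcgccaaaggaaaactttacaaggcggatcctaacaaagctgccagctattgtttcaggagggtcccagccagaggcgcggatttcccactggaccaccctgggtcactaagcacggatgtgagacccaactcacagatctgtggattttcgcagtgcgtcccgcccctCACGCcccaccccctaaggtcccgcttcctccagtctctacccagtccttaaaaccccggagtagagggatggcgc
The core occurred 3 times in the Ahrr window and once each in the Tiparp, Cyp1a1, Cyp1b1 and Arnt windows, and not in those of Nqo1 and Nfe2l2. Of 32851 promoters with windows of the same length, 28.2% held it at least once on either strand and 2.77% at least 3 times. The antioxidant response element TGACNNNGC, the motif of NRF2, was found 2 times in the Arnt window and 1 time in the Nfe2l2 window, and 10.2% of all windows held it. These matches describe letters in a window and say nothing of binding.

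Library totals ran from 17409131 to 46542177 counts. The tdT transcript, read from the 1 entry of the tables that is no mouse gene, stood at 133 to 307 CPM (counts scaled to the same library total) in 5 of the 6 tdT+ libraries and at 2.54 to 4.89 CPM in the tdT- libraries. Of the tdT+ libraries 1 did not match its label, the library labelled as Sca-1neg tdT+ replicate 2, with only 2.05 CPM of tdT (1.44 to 2.83 by the exact 95% binomial interval of Clopper and Pearson, for counting error only), and it is named in this way below. The liver transcript Alb exceeded 1000 CPM in 3 libraries, Sca-1neg tdT+ replicate 1, the library labelled as Sca-1neg tdT+ replicate 2 and Sca-1neg tdT- replicate 2, at 4393 to 9564 CPM, against at most 37.3 CPM in the other 8. Of the genes of the gate, Itga6 (CD49f) stood at 387 to 1276 CPM throughout, while Cd34 was at 22.3 to 35.7 CPM for the Sca-1+ tdT+ group, 320 and 383 CPM for Sca-1+ tdT- and 468 to 1130 CPM for Sca-1neg libraries. The Sca-1 gene Ly6a was at 153 to 294 CPM for Sca-1+ libraries. It was at 9.64 to 59.2 CPM for Sca-1neg tdT+ and 2.46 to 5.74 CPM for Sca-1neg tdT- libraries, without overlap. Whether this difference bears on the Ahr levels below was not tested. The 6 basal keratinocyte genes summed to 31815 to 38469 CPM for Sca-1+ tdT+, 23069 to 26064 CPM for Sca-1+ tdT-, 16919 to 22575 CPM for Sca-1neg tdT+ and 24869 to 25461 CPM for Sca-1neg tdT- libraries. The 8 bulge genes summed to 3369 to 5452 CPM for Sca-1+ tdT+, 4398 and 5480 CPM for Sca-1+ tdT-, 8337 to 12812 CPM for Sca-1neg tdT+ and 12779 to 15581 CPM for Sca-1neg tdT- libraries. Endothelial genes (8 in the list) reached 1833 and 1931 CPM for Sca-1+ tdT- and at most 485 CPM elsewhere, hepatocyte genes (10) at most 40.0 CPM for Sca-1+ and 21513 CPM for Sca-1neg libraries, and macrophage genes (5) 4.56 to 640 CPM.

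The receptor gene Ahr separated all 4 sorted groups. Ahr (ENSMUSG00000019256, chromosome 12, 35497974 to 35535038, build GRCm38) stood at 281, 197 and 306 CPM for Sca-1+ tdT+ replicates 1 to 3. It was 173 and 126 CPM for the Sca-1+ tdT- libraries. In the Sca-1neg fraction it was 88.3, 98.0 and 105 CPM in tdT+ replicates 1 to 3, where the value of 98.0 belongs to the library labelled replicate 2 with its untraced tdT level. The Sca-1neg tdT- libraries were lowest, at 34.9, 36.5 and 29.1 CPM. No library of one group overlapped with a library of the next, so the order was Sca-1+ tdT+, Sca-1+ tdT-, Sca-1neg tdT+ and Sca-1neg tdT- throughout. The tdT+ over tdT- steps of this order were known when Ahr was chosen and only describe it. How many genes show this 4-group order was not counted. Between the Sca-1 fractions alone, libraries did not overlap for 30.4% of all genes in traced and 46.3% in untraced cells. The order was the same at both ages: 281, 173, 88.3 and 34.9 CPM in the 29-week libraries, and 251, 126, 102 and 32.8 CPM as means of the 32-week libraries.

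**Figure D1:**
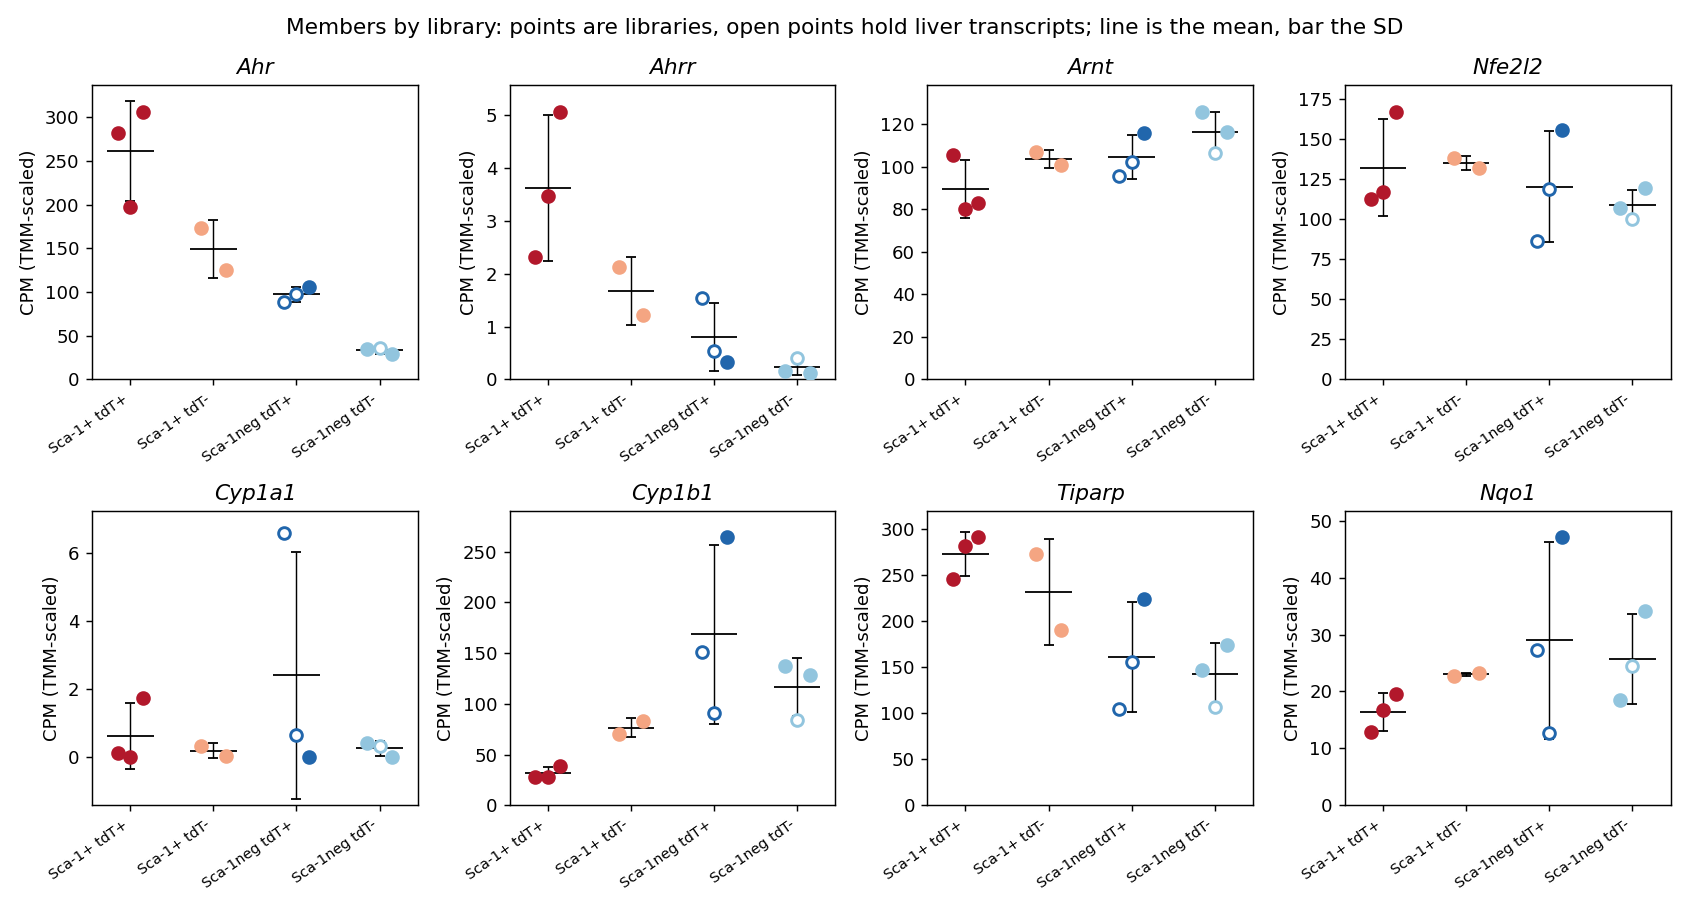
Level of each of the 8 genes in TMM-scaled CPM (linear axis) in the 4 sorted groups. Points are libraries, open points the 3 libraries with liver transcripts, lines the group means and bars the SD (n = 3, 2, 3 and 3). Ahr falls into 4 groups without overlap, highest in Sca-1+ tdT+ (197 to 306 CPM) and lowest in Sca-1neg tdT- (29.1 to 36.5 CPM), while Arnt stays between 80.0 and 126 CPM. That Ahr is higher in tdT+ than in tdT- cells was known when the gene was chosen.

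Sca-1+ cells held more Ahr than Sca-1neg cells, with or without the tracer. Among untraced cells the mean was 149 ± 33.5 CPM for Sca-1+ and 33.5 ± 3.89 CPM for Sca-1neg libraries (SD, n = 2 and 3), a log2 fold change of 2.16 ± 0.21 SE (4.46-fold; edgeR quasi-likelihood test, adjusted p = 0.00148). Among traced cells it was 261 ± 57.3 CPM for Sca-1+ and 97.2 ± 8.49 CPM for Sca-1neg libraries (SD, n = 3 each), a log2 fold change of 1.43 ± 0.19 SE (2.69-fold; edgeR adjusted p = 0.00104). Both calls held under all 19 alternatives tried, with log2 fold changes of 1.90 to 2.42 (adjusted p 5.87e-19 to 0.0132) in untraced and 1.30 to 1.57 (adjusted p 7.37e-10 to 0.0278) in traced cells. In bulk libraries a change in the number of cells that carry a transcript and a change in the amount per cell cannot be told apart. In annotated exons Ahr shares 127 bases with a long noncoding RNA gene on the opposite strand, and the strand setting of the counting is not given in the sources used here.

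As a description of the contrast that led to the choice, Ahr was 1.54 ± 0.19 (log2, SE) higher in tdT+ than in tdT- cells of the Sca-1neg fraction and 0.81 ± 0.22 higher in the Sca-1+ fraction. These are 2.90-fold and 1.75-fold. The difference between the fractions' tdT effects, a quantity the choice did not use, was -0.73 ± 0.28 on the log2 scale and did not pass (edgeR adjusted p = 0.329, 0.102 to 0.756 over the alternatives). The Sca-1 effect was thus 0.73 larger among untraced than among traced cells, a gap that missed the threshold.

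T cell transcripts, taken as a sum, followed the same group order. A list of 12 T cell genes (receptor chains and signalling genes such as Cd3e, Trac, Trdc and Lck) summed to 450 to 1176 CPM for Sca-1+ tdT+, 161 and 175 CPM for Sca-1+ tdT-, 53.3 to 89.2 CPM for Sca-1neg tdT+ and 35.3 to 39.4 CPM for Sca-1neg tdT- libraries. None of the 12 genes was at 0 in any library. Trac and Cd5 had lower means in Sca-1+ tdT- (1.48 and 3.01 CPM) than in Sca-1neg tdT+ libraries (2.17 and 3.49 CPM). Trbc2 had a lower mean in Sca-1neg tdT+ (5.25 CPM) than in Sca-1neg tdT- libraries (7.78 CPM). The other genes of the list had group means in the order of the sum. Thy1 alone gave 93.7 and 86.5 CPM of the sums of Sca-1+ tdT- replicates 1 and 2. In the Sca-1 comparisons 11 of the 12 rose in tdT+ cells and 9 of the 12 in tdT- cells. Of all genes tested, 12.7% and 5.74% passed there in either direction. Within the Sca-1+ tdT+ group the order differed, since replicate 2 had the highest T cell sum, 1176 CPM, and the lowest Ahr, 197 CPM. The part of T cells in the Ahr result was not tested. Of 8 genes of Langerhans cells, the other epidermal immune cell known to carry AHR, 4 rose and 0 fell in Sca-1+ untraced cells, and 1 rose and 2 fell in Sca-1+ traced cells. Cd207, the gene of langerin, averaged 11.7 ± 6.85 CPM for Sca-1+ tdT+, 15.4 ± 8.52 CPM for Sca-1+ tdT-, 3.61 ± 4.77 CPM for Sca-1neg tdT+ and 1.12 ± 0.317 CPM for Sca-1neg tdT- libraries (SD, n = 3, 2, 3 and 3). The antigen presentation genes Cd74 and H2-Ab1 also had their highest means in Sca-1+ tdT- libraries, at 306 and 124 CPM, and their lowest in Sca-1neg tdT- libraries, at 19.1 and 11.3 CPM. H2-Eb1 and Ltc4s had their highest and lowest means in the same groups. Epcam, which keratinocytes also express, ran the other way, at 187 to 304 CPM for Sca-1+ and 313 to 478 CPM for Sca-1neg libraries. Il1r2 had the group order of Ahr, with means of 116, 59.6, 19.6 and 12.1 CPM. Mfge8 had its lowest mean in Sca-1+ tdT+, 26.9 CPM. Its means were 146 CPM for Sca-1+ tdT-, 81.3 CPM for Sca-1neg tdT+ and 142 CPM for Sca-1neg tdT- libraries. The 8 genes together summed to 559 to 758 CPM for Sca-1+ tdT+, 997 and 1067 CPM for Sca-1+ tdT-, 518 to 756 CPM for Sca-1neg tdT+ and 485 to 589 CPM for Sca-1neg tdT- libraries, and their part in the Ahr result was not tested. The 7 genes of differentiating epidermis summed to 7088 to 9870 CPM for Sca-1+ tdT+, 3019 and 6961 CPM for Sca-1+ tdT-, 1544 to 4062 CPM for Sca-1neg tdT+ and 488 to 1700 CPM for Sca-1neg tdT- libraries.

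**Figure D2:**
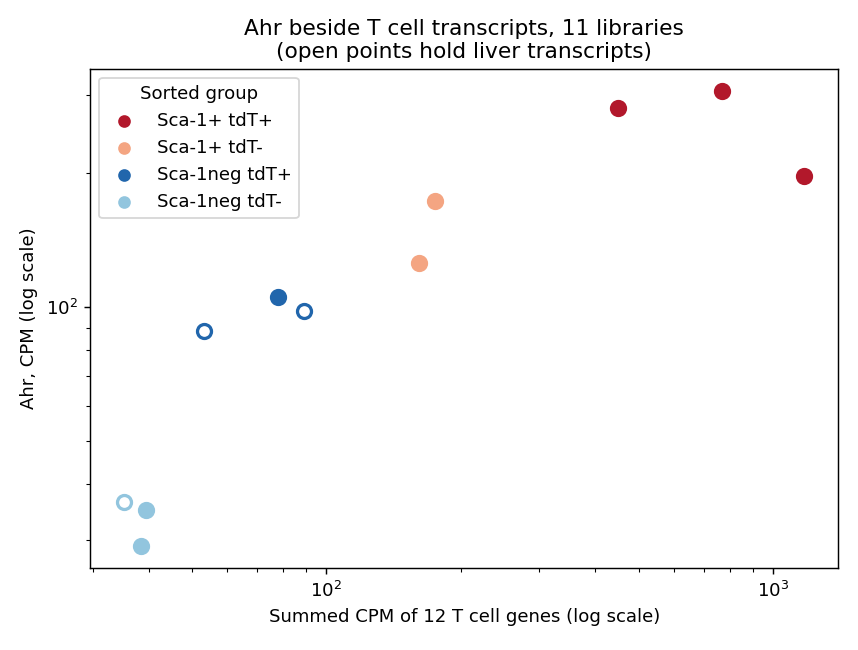
Ahr (CPM, log axis) against the summed CPM of 12 T cell genes (log axis) in each of the 11 libraries, coloured by sorted group, with open points for libraries with liver transcripts. Both quantities are lowest in Sca-1neg tdT- and highest in Sca-1+ tdT+ libraries. Inside Sca-1+ tdT+ the library with the highest T cell sum, 1176 CPM, has the lowest Ahr, 197 CPM.

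The 5 genes whose profile was most like that of Ahr were Smagp, Arrdc3, Cd163l1, Klrb1b and Hcar2, with Pearson r of 0.978, 0.977, 0.977, 0.976 and 0.973 on log2 CPM over the 11 libraries. They are the nearest of 11436 protein-coding genes with a mean of at least 5 CPM, and the points share the 4 groups, so these values only describe a common group pattern. Smagp, a small membrane protein of epithelia, ran from 25.8 to 45.0 CPM for the Sca-1+ groups and from 6.71 to 18.1 CPM for the Sca-1neg groups. Cd163l1, a scavenger receptor of gamma-delta T cells, ran from 13.2 to 20.2 CPM for Sca-1+ tdT+ and from 0.0976 to 0.211 CPM for Sca-1neg tdT- libraries. Arrdc3 encodes an arrestin-domain adaptor, Klrb1b a lectin receptor of lymphocytes and Hcar2 a receptor for hydroxycarboxylic acids. Among the 8 genes of the axis, r with Ahr was 0.904 for Ahrr, 0.743 for Tiparp, 0.474 for Nfe2l2, 0.0539 for Cyp1a1, -0.396 for Nqo1, -0.662 for Cyp1b1 and -0.667 for Arnt.

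The dimer partner Arnt (ENSMUSG00000015522, chromosome 3, 95434388 to 95497240) varied little. Its levels were 105, 80.0 and 83.0 CPM for Sca-1+ tdT+ and 107 and 101 CPM for Sca-1+ tdT- libraries. They were 95.6, 102 and 116 CPM for Sca-1neg tdT+ and 126, 106 and 116 CPM for Sca-1neg tdT- libraries. The groups overlapped in every comparison, and the largest library was 1.57 times the smallest, against 10.5 times for Ahr. Arnt passed neither Sca-1 test, with log2 fold changes of -0.22 ± 0.14 SE in traced (edgeR adjusted p = 0.319) and -0.16 ± 0.16 in untraced cells (edgeR adjusted p = 0.614). Per kilobase of annotated exon, the level of Ahr over that of Arnt in the same library was 3.20 to 4.79 in Sca-1+ tdT+, 1.62 and 2.11 in Sca-1+ tdT-, at most 1.25 and above 1 in Sca-1neg tdT+ and 0.325 to 0.445 in Sca-1neg tdT- libraries. Ahr was thus the less abundant transcript of the pair in Sca-1neg tdT- libraries and the more abundant one in all other groups.

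The repressor gene Ahrr (ENSMUSG00000021575, chromosome 13, 74211118 to 74292331) was expressed at a low level, with group means in the order of those of Ahr. It had 2.32, 3.46 and 5.06 CPM for Sca-1+ tdT+ and 2.12 and 1.21 CPM for Sca-1+ tdT- libraries. In the Sca-1neg fraction it had 1.54, 0.536 and 0.331 CPM in tdT+ and 0.165, 0.396 and 0.122 CPM in tdT- libraries, which rest on 5 to 34 counts each. The Sca-1+ libraries lay above the Sca-1neg libraries for either tracer state, while the highest Sca-1neg tdT+ value came from a library with liver transcripts. The log2 fold change of Sca-1+ over Sca-1neg was 2.16 ± 0.77 SE in traced (edgeR adjusted p = 0.0909, 0.0292 to 0.215 over the alternatives) and 2.86 ± 0.83 in untraced cells (edgeR adjusted p = 0.0727, 0.00824 to 0.442 over the alternatives), and neither passed. Between tracer states, Ahrr was 1.11 ± 0.84 (log2, SE) higher in tdT+ cells of the Sca-1+ fraction and 1.81 ± 0.77 higher in those of the Sca-1neg fraction, given as a description.

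The damping gene Tiparp (ENSMUSG00000034640, chromosome 3, 65528410 to 65555518), a mono-ADP-ribosyltransferase that modifies the receptor, was the most abundant of the 8 per kilobase of exon, at a mean of 45.8 CPM per kilobase. Its levels were 246, 282 and 291 CPM for Sca-1+ tdT+ and 273 and 191 CPM for Sca-1+ tdT- libraries. They were 105, 156 and 224 CPM for Sca-1neg tdT+ and 147, 107 and 174 CPM for Sca-1neg tdT- libraries. All Sca-1+ libraries stood above the Sca-1neg libraries of the same tracer state, and the lowest value of each Sca-1neg group came from a library with liver transcripts. The log2 fold changes of Sca-1+ over Sca-1neg were 0.76 ± 0.27 SE in traced (edgeR adjusted p = 0.0933, 0.0281 to 0.514 over the alternatives) and 0.70 ± 0.30 in untraced cells (edgeR adjusted p = 0.209, 0.0602 to 0.740 over the alternatives), and neither passed. Tiparp shares 223 annotated exonic bases with a pseudogene on the opposite strand.

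Cyp1b1 was lowest where the receptor gene was highest, but between tracer states of the Sca-1neg fraction both had higher means in tdT+ cells. Cyp1b1 (ENSMUSG00000024087, chromosome 17, 79701537 to 79715061), which oxidises polycyclic hydrocarbons and oestrogens, had 27.6, 28.2 and 38.7 CPM for Sca-1+ tdT+ libraries, the group with the most Ahr. It had 70.3 and 82.9 CPM for Sca-1+ tdT- libraries. In the Sca-1neg fraction it had 151, 90.7 and 264 CPM in tdT+ and 138, 83.7 and 129 CPM in tdT- libraries. The Sca-1+ tdT+ libraries lay below those of every other group, and the 2 Sca-1neg groups overlapped. The order also held within each age for Sca-1+ against Sca-1neg traced cells: 27.6 against 151 CPM at 29 weeks, and means of 33.5 against 177 CPM at 32 weeks.

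Among traced cells Cyp1b1 fell in Sca-1+ cells, to 31.5 ± 6.25 CPM against 169 ± 88.0 CPM for Sca-1neg cells (SD, n = 3 each), a log2 fold change of -2.42 ± 0.36 SE (edgeR adjusted p = 0.00237). This call held under all 19 alternatives, with log2 fold changes of -3.09 to -1.94 (adjusted p 4.39e-11 to 0.0152). Among untraced cells the log2 fold change was -0.61 ± 0.39 and did not pass (edgeR adjusted p = 0.416, 0.0476 to 0.764 over the alternatives). By tracer state Cyp1b1 was 1.28 ± 0.38 (log2, SE) lower in tdT+ than in tdT- cells of the Sca-1+ fraction and 0.53 ± 0.34 higher in those of the Sca-1neg fraction, given as a description. The difference of these tdT effects was -1.81 ± 0.51 and did not pass in edgeR (adjusted p = 0.186). It passed in DESeq2, and in edgeR without the 3 libraries with liver transcripts, where it was -2.33 (adjusted p = 0.00633, the lowest of 0.00633 to 0.566 over the alternatives). In Sca-1+ traced cells 8 of 8 bulge stem cell genes also fell, with a median log2 fold change of -3.48. Of the genes of other skin cells, 1 of 7 dermal fibroblast and 1 of 5 melanocyte genes fell there and none rose. Of all genes tested, 12.7% passed in this comparison in either direction. The fibroblast genes summed to 83.3 to 409 CPM for Sca-1+ tdT+ and 382 to 519 CPM for Sca-1neg tdT+ libraries, with overlap. Among them Sparc had 54.3 to 67.2 CPM for Sca-1+ tdT+ and 254 to 303 CPM for Sca-1neg tdT+ libraries, and Col1a1 had 3.15 to 71.2 CPM for Sca-1+ tdT+ and 7.27 to 29.1 CPM for Sca-1neg tdT+ libraries. The melanocyte genes summed to 15.4 to 24.5 CPM for Sca-1+ tdT+ and 92.8 to 123 CPM for Sca-1neg tdT+ libraries. The part of bulge, fibroblast and melanocyte cells in the Cyp1b1 result was not tested.

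Cyp1a1 (ENSMUSG00000032315, chromosome 9, 57687928 to 57703824), the most sensitive of the classical target genes, was near the limit of detection. Its counts were 5, 0 and 34 in the Sca-1+ tdT+ libraries and 11 and 1 in the Sca-1+ tdT- libraries. They were 145, 12 and 0 in Sca-1neg tdT+ and 21, 13 and 1 in Sca-1neg tdT- libraries. The highest level, 6.57 CPM, was that of Sca-1neg tdT+ replicate 1, the library with the most Alb, and the next was 1.75 CPM for Sca-1+ tdT+ replicate 3, which held 18.6 CPM of Alb. A count of 0 allows up to 3 counts, which is 0.170 CPM for Sca-1+ tdT+ replicate 2 and 0.165 CPM for Sca-1neg tdT+ replicate 3. No group stood apart from another, and neither Sca-1 test passed (edgeR log2 fold change -1.94 ± 1.87 SE in traced and -0.42 ± 2.11 in untraced cells, adjusted p = 0.523 and 0.940).

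The liver enzyme gene Cyp1a2, another target of the receptor, moved with Alb. It stood at 50.1, 30.4 and 49.4 CPM in the 3 libraries with liver transcripts and at most at 0.165 CPM in the other 8. Cyp1a1 did not follow it: the 2 remaining libraries with liver transcripts, at 30.4 and 49.4 CPM of Cyp1a2, had 0.643 and 0.344 CPM of Cyp1a1. Without the 3 libraries, Cyp1a1 ranged from 0 to 1.75 CPM.

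**Figure D3:**
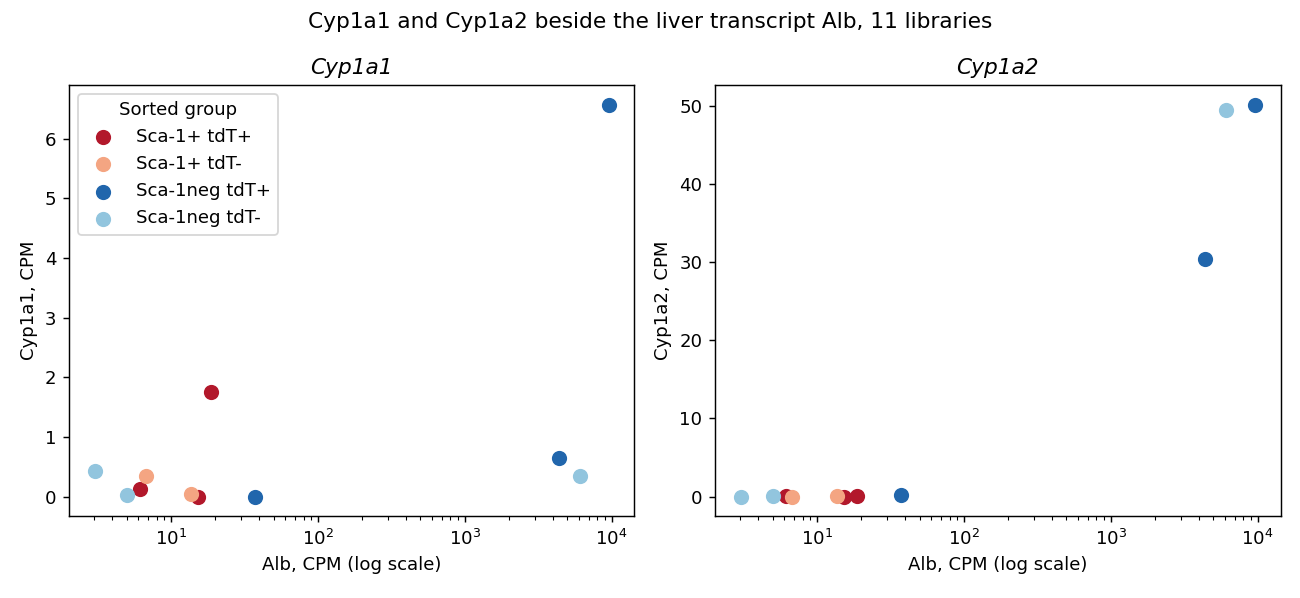
Cyp1a1 and Cyp1a2 (CPM, linear axes) against Alb (CPM, log axis) in the 11 libraries, coloured by sorted group. Cyp1a2 is at 30.4 to 50.1 CPM in the 3 libraries with Alb above 1000 CPM and near 0 elsewhere, while Cyp1a1 reaches 6.57 CPM in only 1 of them.

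Nfe2l2 and its target Nqo1 passed neither Sca-1 test with all libraries. Nfe2l2 (ENSMUSG00000015839, chromosome 2, 75675513 to 75704641) had 112, 117 and 167 CPM for Sca-1+ tdT+ and 138 and 132 CPM for Sca-1+ tdT- libraries. It had 86.3, 119 and 156 CPM for Sca-1neg tdT+ and 107, 100.4 and 119 CPM for Sca-1neg tdT- libraries. The Sca-1+ tdT- libraries lay above the Sca-1neg tdT- libraries, and the traced groups overlapped. The log2 fold changes of Sca-1+ over Sca-1neg were 0.14 ± 0.22 SE in traced and 0.31 ± 0.24 in untraced cells (edgeR adjusted p = 0.715 and 0.508).

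Nqo1 (ENSMUSG00000003849, chromosome 8, 107388225 to 107403206) had 12.8, 16.7 and 19.5 CPM for Sca-1+ tdT+ and 22.8 and 23.2 CPM for Sca-1+ tdT- libraries. It had 27.3, 12.6 and 47.1 CPM for Sca-1neg tdT+ and 18.5, 24.5 and 34.1 CPM for Sca-1neg tdT- libraries. Its lowest and highest values, 12.6 and 47.1 CPM, both came from Sca-1neg tdT+, the lowest from the library labelled replicate 2. The Sca-1+ tdT+ libraries lay below the Sca-1+ tdT- libraries, and the other groups overlapped. The log2 fold change of Sca-1+ over Sca-1neg was -0.83 ± 0.40 SE in traced cells (edgeR adjusted p = 0.196, 0.0177 to 0.620 over the alternatives) and -0.16 ± 0.45 in untraced cells (edgeR adjusted p = 0.888). In traced cells it passed without the library labelled as Sca-1neg tdT+ replicate 2, at -1.19 (adjusted p = 0.0391), and without the 3 libraries with liver transcripts, at -1.55 (adjusted p = 0.0177), where the 1 Sca-1neg tdT+ library left was that with 47.1 CPM.

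Counted over the axis, 2 of the 8 genes passed between Sca-1+ and Sca-1neg traced cells, Ahr higher and Cyp1b1 lower, where 12.7% of all genes tested passed in either direction. Among untraced cells 1 of 8 passed, Ahr, where 5.74% of all genes passed. The libraries of the 2 Sca-1 fractions did not overlap for 4 of 8 genes in traced cells (Ahr, Ahrr, Cyp1b1 and Tiparp), against 30.4% of all genes, and for 5 of 8 in untraced cells (these and Nfe2l2), against 46.3%. DESeq2 passed 4 of 8 in traced cells, adding Ahrr and Tiparp, and 2 of 8 in untraced cells, adding Ahrr. The number of all genes passing also changed between the alternatives, as the closing section gives. The counts from DESeq2 and from the fits with libraries left out therefore do not compare with the shares above. The traced count was 3 without the library labelled as Sca-1neg tdT+ replicate 2 (adding Nqo1) and 3 without Sca-1neg tdT+ replicate 3 (adding Tiparp). The untraced count was 2 without Sca-1neg tdT+ replicate 3 (adding Ahrr). With the 3 libraries holding liver transcripts left out, the count was 3 in traced cells (adding Nqo1) and 3 in untraced cells (adding Ahrr and Cyp1b1), and 1 Sca-1neg tdT+ library was then left, assumed to vary like the others.

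For the difference of the tdT effects 0 of 8 passed in edgeR, where 0.483% of all genes passed. At an unadjusted p under 0.05 there were 2 of the 8, and 2476 of all 20307 genes. In DESeq2 1 of the 8 passed (Cyp1b1).

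**Figure D4:**
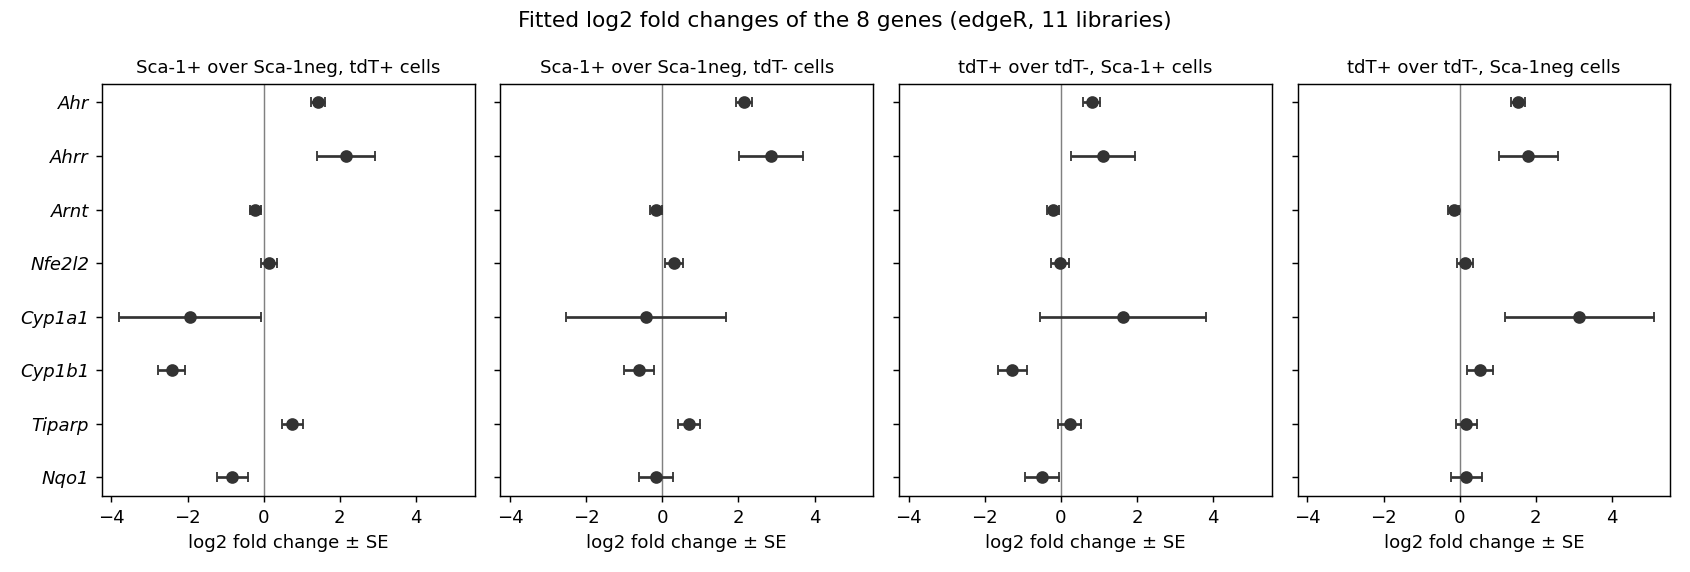
Fitted log2 fold changes of the 8 genes with their SE, for Sca-1+ over Sca-1neg cells in traced and untraced cells and for tdT+ over tdT- cells in each fraction, from 1 edgeR fit to 11 libraries. Ahr is positive in all 4 panels, from 0.81 to 2.16, Cyp1b1 reaches -2.42 in traced cells, and the error of Cyp1a1 spans up to 2.19 on either side.

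Of 14 genes for partners and chaperones of the receptor, 4 rose and 0 fell in Sca-1+ over Sca-1neg traced cells and 1 rose in untraced cells. Of all genes, 12.7% passed in traced and 5.74% in untraced cells in edgeR. DESeq2 passed 5 and 3 of the 14, and its share of all genes is not given here. In tdT+ over tdT- cells 1 rose in the Sca-1+ fraction, where 2.74% of all genes passed. In the Sca-1neg fraction, where 0.0640% of all genes passed, none did in edgeR, and 1 passed in DESeq2, Arnt2. At an unadjusted p under 0.05 there was 1 of the 14, and 1691 of all 20307 genes. The gene common to the first 3 comparisons was Arnt2, the paralogue of Arnt that is best known from the nervous system. Arnt2 had 28.2, 51.4 and 38.4 CPM for Sca-1+ tdT+ and 7.21 and 6.53 CPM for Sca-1+ tdT- libraries. It had 6.30, 2.79 and 1.82 CPM for Sca-1neg tdT+ and 1.20, 1.37 and 1.27 CPM for Sca-1neg tdT- libraries. The Sca-1+ tdT+ libraries thus stood above all others, with log2 fold changes of 3.43 ± 0.43 SE over Sca-1neg traced cells and 2.51 ± 0.49 over Sca-1+ untraced cells (edgeR adjusted p = 0.000732 and 0.0214). The other 3 genes that rose in traced cells, Ddb1, Relb and Klf6, a subunit of a ubiquitin ligase and 2 transcription factors, did so by 0.56 to 0.58 on the log2 scale. With the libraries with liver transcripts left out, 1 Sca-1neg tdT+ library remained. Ddb1, Relb and Klf6 then did not keep their calls, at 0.55, 0.79 and 0.43. Arnt2 stood at 4.41 and the chaperone gene Hsp90aa1, named after its values were seen, at -0.79. Klf6 also missed the threshold without the library labelled as Sca-1neg tdT+ replicate 2 (adjusted p = 0.0659). The related chaperone gene Hsp90ab1, the most abundant of the list, passed in no comparison in edgeR and rose in traced cells in DESeq2.

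Other genes known as targets of the receptor, such as metabolic enzymes, cytokines and epidermal genes, moved in both directions with the Sca-1 fraction. Of 26 genes 25 were tested, and 5 rose and 1 fell in Sca-1+ untraced cells, while 6 rose and 3 fell in Sca-1+ traced cells. Of all genes, 5.74% passed in untraced and 12.7% in traced cells in edgeR. DESeq2 passed 8 of the target genes in untraced and 14 in traced cells, and its share of all genes is not given here. Itgae, the integrin chain that holds T cells in epithelium, rose by 3.89 ± 0.47 in untraced and 3.99 ± 0.45 in traced cells (log2, SE; edgeR adjusted p = 0.00383 and 0.000533). Its level was 85.7, 173 and 169 CPM for Sca-1+ tdT+ and 26.1 and 13.4 CPM for Sca-1+ tdT- libraries, and at most 10.4 CPM for Sca-1neg libraries. The alarmin gene Il33 rose by 3.79 ± 0.59 in untraced and 3.09 ± 0.55 in traced cells (edgeR adjusted p = 0.0106 and 0.00817), at 187 to 404 CPM for Sca-1+ tdT+, 165 and 198 CPM for Sca-1+ tdT- and 10.6 to 62.9 CPM for Sca-1neg libraries. Without the libraries with liver transcripts Itgae stood at 3.82 in untraced and 4.26 in traced cells, and Il33 at 3.76 and 4.06 (log2). The traced values then rest on 1 Sca-1neg tdT+ library.

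Cyp2s1, a cytochrome of epithelia, fell in Sca-1+ cells of both tracer states, where Cyp1b1 passed in traced cells only. It had 35.2, 23.3 and 19.3 CPM for Sca-1+ tdT+, 35.4 and 32.1 CPM for Sca-1+ tdT-, 54.4, 67.5 and 65.8 CPM for Sca-1neg tdT+ and 112, 69.5 and 90.4 CPM for Sca-1neg tdT- libraries. All Sca-1+ libraries lay below all Sca-1neg libraries, with log2 fold changes of -1.27 ± 0.24 SE in traced and -1.42 ± 0.27 in untraced cells (edgeR adjusted p = 0.00624 and 0.0147). The cytokine gene Il1b rose in untraced cells, by 3.07 ± 0.59, and the amino acid transporter gene Slc7a5 in traced cells, by 1.09 ± 0.25 (edgeR adjusted p = 0.0144 and 0.0163). The aldehyde dehydrogenase gene Aldh3a1 and the serpin gene Serpinb2, named after their values were seen, rose in traced cells by 1.49 ± 0.37 and 2.42 ± 0.63 (edgeR adjusted p = 0.0264 and 0.0372). The receptor tyrosine kinase gene Kit and the lysophosphatidic acid receptor gene Lpar1, named likewise, fell in traced cells by 1.70 and 2.10 on the log2 scale (edgeR adjusted p = 0.0179 and 0.0228), and the transcription factor gene Ovol1 rose by 0.97 (edgeR adjusted p = 0.0498). In untraced cells Serpinb2 and Ovol1 rose by 3.63 and 1.37 (edgeR adjusted p = 0.0199 and 0.0301). Without the libraries with liver transcripts all 6 untraced calls held, and Entpd1, Ido1 and Socs2 also rose. In traced cells 1 Sca-1neg tdT+ library was then left, replicate 3, so only effect sizes are given. Slc7a5, Aldh3a1, Kit and Ovol1 stood at 0.85, 0.73, -1.65 and 0.81 on the log2 scale. Entpd1, Il1b, Il24, Ugt1a7c and Prdm1 stood at 2.70, 1.95, 10.1, 5.97 and -1.91. That library had 0 CPM of Il24 and 0.0551 CPM of Ugt1a7c. Its Prdm1 was 48.2 CPM, against 15.1 and 17.7 CPM in the Sca-1neg tdT+ libraries left out. Aldh3a1 missed the threshold in traced cells without the library labelled as Sca-1neg tdT+ replicate 2 (edgeR adjusted p = 0.0550).

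The median log2 fold change of the 25 target genes was 1.37 in untraced cells, against -0.13 over all genes, and -0.62 in traced cells, against -0.07 over all genes. The traced median was 0.83 over the 24 genes tested without the libraries with liver transcripts, and 0.24 over 25 genes with only the library labelled as Sca-1neg tdT+ replicate 2 left out, so its sign rests on those libraries. Between tracer states, Itgae rose in tdT+ cells of the Sca-1+ fraction, by 2.85 ± 0.50 (edgeR adjusted p = 0.0148). It was the 1 target gene past the threshold there in edgeR, where 2.74% of all genes passed. At an unadjusted p under 0.05 there were 7 target genes, and 2935 of all 20307 genes. In DESeq2 4 target genes passed (Aldh3a1, Itgae, Kit and Socs2). Without the libraries with liver transcripts Itgae and Aldh3a1 stood at 2.78 and 1.46 on the log2 scale. Entpd1, Socs2 and Lpar1, named after their values were seen, stood at -4.59, -3.28 and -1.32. Entpd1, an ectonucleotidase gene that endothelium also expresses, had 2.63 to 7.72 CPM for Sca-1+ tdT+ and 89.5 and 130 CPM for Sca-1+ tdT- libraries, the group with the highest sums of endothelial genes, whose part was not tested. No target gene passed in the Sca-1neg fraction in edgeR, where 0.0640% of all genes passed. At an unadjusted p under 0.05 there were 7 target genes, and 1691 of all 20307 genes. In DESeq2 2 target genes passed in this fraction (Il1b and Itgae). In that fraction Serpinb2 and Nfe2l1, the most abundant of them, had 584 ± 474 and 370 ± 76.5 CPM in tdT+ and 156 ± 94.9 and 352 ± 22.1 CPM in tdT- libraries (SD, n = 3 each).

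The enzymes that turn tryptophan into kynurenines and other ligands of the receptor gave no call in edgeR. None of the 11 genes tested passed in any of the 5 comparisons. At an unadjusted p under 0.05 there were 6 for Sca-1 in traced and 2 in untraced cells. Of all 20307 genes, 6064 and 4173 were there. For the difference of the tdT effects there was 1, against 2476 of all genes, and 0 for either tdT comparison. DESeq2 passed 4 in traced cells (Ddc, Kmo, Kyat1 and Tdo2), 1 in untraced cells (Ido1) and 0 in the other 3 comparisons. Without the libraries with liver transcripts edgeR passed 1 of 8, Ido1 in untraced cells, which had 0.981 and 1.55 CPM for Sca-1+ tdT- and at most 0.106 CPM for Sca-1neg tdT- libraries. Kyat1, a kynurenine aminotransferase and 1 of the 2 most abundant of them, had 39.4 to 42.9 CPM for Sca-1+ tdT+, 36.3 and 37.2 CPM for Sca-1+ tdT-, 51.5 to 65.5 CPM for Sca-1neg tdT+ and 45.1 to 60.1 CPM for Sca-1neg tdT- libraries. Tdo2, the tryptophan dioxygenase of liver, had 144, 62.2 and 48.1 CPM in the 3 libraries with liver transcripts and at most 1.76 CPM in the other 8.

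Of 25 target genes of NRF2, 2 rose and 3 fell in Sca-1+ over Sca-1neg traced cells and 20 did not pass. In untraced cells 2 rose, 2 fell and 21 did not pass. Of all genes, 12.7% passed in traced and 5.74% in untraced cells in edgeR. DESeq2 passed 8 of the 25 in traced and 7 in untraced cells, and its share of all genes is not given here. The genes of the glutamate-cysteine ligase, which makes the precursor of glutathione, were among those that fell: Gclc by 0.80 ± 0.17 and Gclm by 1.61 ± 0.30 on the log2 scale in traced cells (edgeR adjusted p = 0.0112 and 0.00706), and Gclc by 1.07 ± 0.19 in untraced cells (edgeR adjusted p = 0.0120). Gclm had 25.6, 42.6 and 22.2 CPM for Sca-1+ tdT+ and 137, 62.2 and 76.9 CPM for Sca-1neg tdT+ libraries, without overlap. The microsomal epoxide hydrolase gene Ephx1 fell by 1.23 ± 0.22 in traced and 1.05 ± 0.25 in untraced cells (edgeR adjusted p = 0.00453 and 0.0328), with 104 to 136 CPM for Sca-1+ tdT+, 143 and 154 CPM for Sca-1+ tdT- and 222 to 397 CPM for Sca-1neg libraries.

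In the other direction, the glutathione-conjugate pump gene Abcc1 rose by 1.12 ± 0.21 in traced and 0.99 ± 0.22 in untraced cells (edgeR adjusted p = 0.00570 and 0.0283), and G6pdx, the first enzyme of the pentose phosphate pathway, by 0.99 ± 0.29 and 1.25 ± 0.32 (edgeR adjusted p = 0.0490 and 0.0447). Without the libraries with liver transcripts the untraced calls held. In traced cells, with 1 Sca-1neg tdT+ library left, Gclm, Ephx1 and G6pdx stood at -1.37, -1.69 and 1.89 on the log2 scale. Gclc and Abcc1 did not keep their calls there, at -0.63 and 1.01. In the same fit the glutathione transferase gene Gsta4 stood at 3.69 in untraced and 6.65 in traced cells, and the thioredoxin reductase gene Txnrd1 at 0.87 in untraced cells. The median over the 25 genes was 0.04 in traced and 0.02 in untraced cells, against -0.07 and -0.13 over all genes. Of 13 regulators of NRF2, 1 passed in edgeR, the repressor gene Bach2, which fell by 1.63 ± 0.33 in Sca-1+ over Sca-1neg traced cells (edgeR adjusted p = 0.00901). Without the libraries with liver transcripts Bach2 stood at -1.81, against 1 Sca-1neg tdT+ library. In untraced cells none of the 13 passed in edgeR, and 1 passed in DESeq2, Btrc. At an unadjusted p under 0.05 there were 3 of the 13, and 4173 of all 20307 genes. Between tracer states no gene of either list passed in edgeR or DESeq2. At an unadjusted p under 0.05 there were 2 target genes in each fraction, and 1 regulator in the Sca-1neg and 0 in the Sca-1+ fraction. Of all 20307 genes, 1691 in the Sca-1neg and 2935 in the Sca-1+ fraction were under it. Without the library labelled as Sca-1neg tdT+ replicate 2, G6pdx lost its call in both tracer states (adjusted p = 0.106 in traced and 0.0580 in untraced cells).

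**Figure D5:**
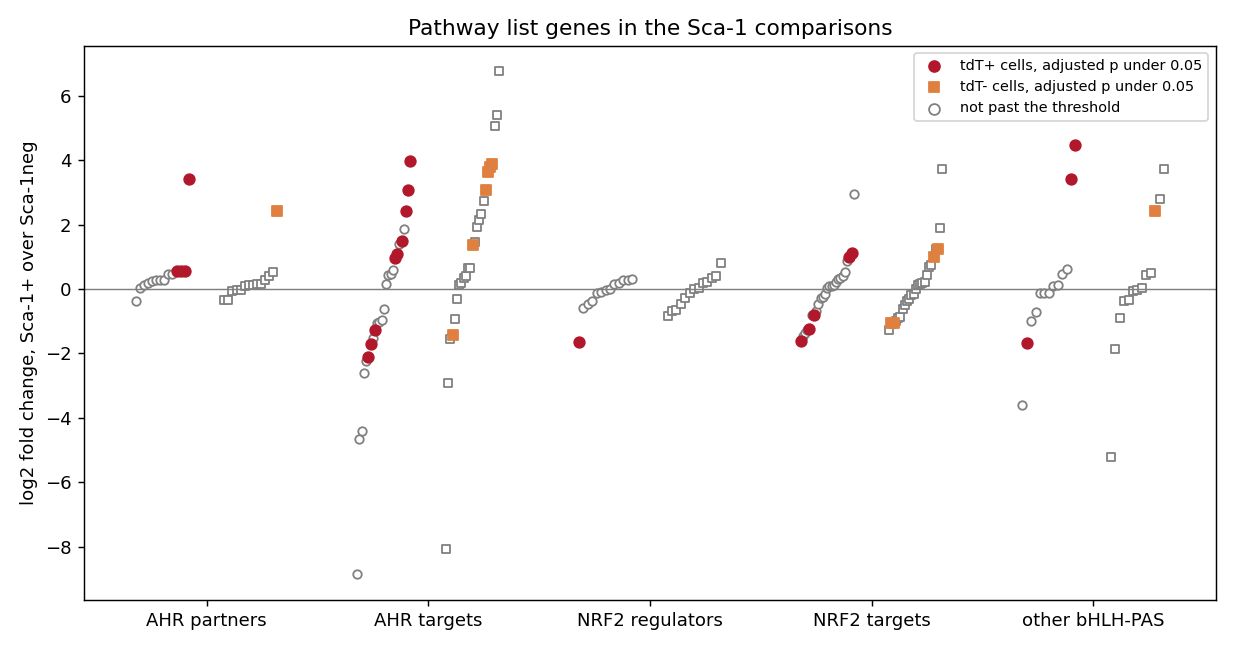
Fitted log2 fold change of Sca-1+ over Sca-1neg cells for each tested gene of 5 pathway lists, with circles for tdT+ and squares for tdT- cells. Filled marks passed edgeR at an adjusted p under 0.05 and open marks did not. The filled marks of the NRF2 targets lie on both sides of 0, from -1.61 to 1.25, and Arnt2 stands at 3.43 in traced and 2.42 in untraced cells.

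Among 16 other bHLH-PAS genes, the family of AHR, 13 were tested. Of these, 2 rose and 1 fell in Sca-1+ over Sca-1neg traced cells, where 12.7% of all genes passed in edgeR. Beside Arnt2 these were Npas4, an activity-induced factor best known from neurons, at 2.40 to 2.99 CPM for Sca-1+ tdT+ and 0 to 0.268 CPM for Sca-1neg tdT+ libraries, and the clock gene Per2, which fell by 1.68 ± 0.44 (log2, SE; edgeR adjusted p = 0.0299). Without the libraries with liver transcripts Arnt2 and Npas4 stood at 4.41 and 9.34, against 1 Sca-1neg tdT+ library, which had 0 CPM of Npas4. Per2 did not keep its call there, at -1.26. Nor did Per2 without the library labelled as Sca-1neg tdT+ replicate 2 (edgeR adjusted p = 0.0585). In untraced cells and between tracer states of the Sca-1+ fraction 1 of 13 rose in edgeR, Arnt2, where 5.74% and 2.74% of all genes passed. DESeq2 also passed Epas1 in both and Npas4 in untraced cells. Epas1, a hypoxia factor gene best known from endothelium, had 42.4 to 60.5 CPM for Sca-1+ tdT+, 298 and 363 CPM for Sca-1+ tdT-, 17.6 to 150 CPM for Sca-1neg tdT+ and 20.7 to 97.7 CPM for Sca-1neg tdT- libraries, highest where the endothelial genes were. In edgeR without the libraries with liver transcripts Epas1 stood at -2.82 (log2) in tdT+ over tdT- cells of the Sca-1+ fraction. It stood at 3.90 in Sca-1+ untraced cells. In Sca-1+ traced cells it stood at 1.46, against 1 Sca-1neg tdT+ library, and at -0.98 with all libraries. Between tracer states of the Sca-1neg fraction 0 of 13 passed in edgeR, and 1 passed in DESeq2, Arnt2. At an unadjusted p under 0.05 there were 3 of the 13, and 1691 of all 20307 genes. Hif1a, the hypoxia factor that also pairs with ARNT, passed in no comparison in edgeR and in 1 in DESeq2, traced cells, at 408 ± 87.3 CPM for Sca-1+ tdT+, 511 ± 35.7 CPM for Sca-1+ tdT-, 267 ± 38.4 CPM for Sca-1neg tdT+ and 361 ± 57.9 CPM for Sca-1neg tdT- libraries (SD, n = 3, 2, 3 and 3).

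Across genes, levels were compared per kilobase of annotated exon. In Sca-1+ tdT+ libraries the order of mean levels was Tiparp (62.7 CPM per kilobase), Ahr (42.4), Nfe2l2 (34.8), Arnt (11.2), Nqo1 (10.5), Cyp1b1 (5.39), Ahrr (0.383) and Cyp1a1 (0.226). In Sca-1neg tdT- libraries it was Tiparp (32.8 CPM per kilobase), Nfe2l2 (28.7), Cyp1b1 (20.0), Nqo1 (16.5), Arnt (14.5), Ahr (5.44), Cyp1a1 (0.0959) and Ahrr (0.0241). Ahr thus stood next to the top in Sca-1+ tdT+ and below Arnt in Sca-1neg tdT-, while Cyp1b1 stood below Arnt in Sca-1+ tdT+ and above it in Sca-1neg tdT-. Neighbours such as Arnt and Nqo1 in Sca-1+ tdT+ (11.2 ± 1.72 and 10.5 ± 2.15 CPM per kilobase, SD, n = 3) lay within each other's spread.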

How the data were processed

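Gene counts of 11 libraries were analysed. The deposited counts are raw and whole-numbered, 1 file per library. Per the submitters' processing notes, the tools were STAR, featureCounts, FastQC, DESeq2 1.18.1 and bcl2fastq 2.20.0.422, with build mm10, and per the labels' protocols the kit was TruSeq RNA v2. Neither the annotation nor the counting options (strand, reads with several matches) are stated in the sources used here. No library was a copy of another, since chi-square per degree of freedom was at least 45.5 over 55 pairs.

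Symbols, coordinates and exon lengths came from GENCODE M21 (GRCm38), matched by Ensembl identifier. Counts were tested in R 4.3.3 with edgeR 4.0.16: filterByExpr, TMM scaling and a robust quasi-likelihood fit with 4 group means, 7 residual degrees of freedom and Benjamini-Hochberg adjustment over 20307 genes at a threshold of 0.05. The SE is the absolute log2 fold change over the square root of F, and CPM are TMM-scaled, except those of the tdT transcript, which are shares of the library total. Genes are named by these rules: the 8 genes, up to 4 list genes past the threshold by lowest p or the 2 most abundant, and the 5 nearest to Ahr by Pearson correlation. The members and the 6 pathway and 10 marker lists were chosen with earlier results of these data known. The 9 kinds of alternative included DESeq2 1.42.0. The fit without the 3 libraries with liver transcripts left 1 Sca-1neg tdT+ library, replicate 3, so its calls for Sca-1 in traced cells rest on that library. The fit was tested on simulated data.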

Additional observations from a re-analysis of the deposited data

Results flagged for a closer look

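The tables hold 1 entry under a protein identifier, outside the gene tests, that was read as the tdT transcript. It exceeded the highest level of the tdT- libraries, 4.89 CPM, in 5 tdT+ libraries, at 254, 224 and 307 CPM in Sca-1+ tdT+ replicates 1 to 3 and at 133 and 252 CPM for the Sca-1neg tdT+ replicates 1 and 3. The library labelled as Sca-1neg tdT+ replicate 2 did not exceed it, at 2.05 CPM, while its Ahr, 98.0 CPM, lay between those of the other Sca-1neg tdT+ libraries, 88.3 and 105 CPM, and above all Sca-1neg tdT- libraries, 29.1 to 36.5 CPM.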

How the results depend on the processing

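The Sca-1 calls of Ahr in both tracer states and of Cyp1b1 in traced cells held under all 19 alternatives. No count of the 8 genes is given for the tdT comparisons, which the choice of the genes used. In the other 3 comparisons the number of the 8 genes past the threshold, 2 for Sca-1 in traced cells, 1 in untraced cells and 0 for the difference of the tdT effects, changed as follows. When the 3 libraries holding liver transcripts were left out, it was 3 for Sca-1 in traced cells, 3 in untraced cells and 1 for the difference. In DESeq2 it was 4 for Sca-1 in traced and 2 in untraced cells and 1 for the difference. Leaving out 1 library each gave 2 to 3 for Sca-1 in traced and 1 to 2 in untraced cells. Whether replicate numbers pair the libraries was not settled. Same-numbered libraries correlated at -0.415 to 0.589 in their deviations from the group means, and libraries of different number were not compared. With the replicate block the count was 2 for Sca-1 in traced cells, 1 in untraced cells and 0 for the difference, as without it. Over all genes, the count past the threshold was 2572 for Sca-1 in traced cells (1584 to 4652 over the alternatives), 1166 in untraced cells (116 to 2898), 556 for tdT in Sca-1+ (145 to 1449), 13 in Sca-1neg (0 to 400) and 98 for the difference (26 to 836). The cause of these changes was not tested. Depth limits Cyp1a1 and Ahrr, whose values rest on as few as 0 and 5 counts.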
